A study of Mus musculus with 9 samples.

Results

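The integrin and laminin subunits described here are the 37 protein-coding genes whose GENCODE symbols name an integrin alpha chain (18 genes), an integrin beta chain (8 genes) or a laminin chain (11 genes), out of 55822 genes in the count table. They were chosen by symbol and sorted, from general knowledge of where each is mainly made, into 10 epithelial, 12 stromal and 9 leukocyte subunits and 6 that many cell types share. The subunits and their classes were chosen with earlier results of these data known. With a minimum of 10 counts summed over all libraries, 36 of the 37 were tested among 21299 genes. Itgad, a leukocyte alpha chain, had 1 count in all libraries together and was not tested.

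Whole extrahepatic bile ducts (EHBDs) were taken from adult wild-type C57BL/6 mice (C57BL/6J in the methods) 24 hours after surgery and sequenced as bulk RNA, each mouse giving 1 library. The 4 sham mice (2 males and 2 females) had a laparotomy without ligation. The 5 mice with bile duct ligation (BDL, 2 males and 3 females) had the same laparotomy and a ligature at the distal EHBD near the duodenum. The duct of each mouse was sampled whole, so every value is an average over epithelium, stroma, vessels, blood cells and any pancreas or fat taken with the duct.

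Integrins are pairs of 1 alpha and 1 beta chain that span the cell membrane and hold cells to the matrix or to other cells. Laminins are cross-shaped trimers of an alpha, a beta and a gamma chain and form the sheet of the basement membrane on which duct epithelium rests. Epithelium makes laminin with the chains Lama3 and Lamb3 and anchors to it through the integrins of Itga3 with Itgb1 and Itga6 with Itgb4, whereas leukocytes use integrins with Itgb2 to leave the blood.

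Libraries held 24101163 to 27025227 counts in sham and 23067967 to 29991945 counts in BDL, and levels below are normalized counts, meaning the estimated counts of a library divided by its DESeq2 size factor. All 10 biliary epithelial markers had counts in every library, and their summed level was 80940 to 124340 in sham and 205691 to 353606 in BDL. Summed fibroblast markers fell between the groups without overlap, from 59403 to 102641 in sham to 6683 to 48001 in BDL. Genes of the pancreatic acinus took 21.3% to 57.9% of the counts in sham and 0.00981% to 3.06% in BDL, and acinar content cannot be told apart from surgery here. BDL replicate 4 stood apart from the other BDL libraries, with the lowest summed fibroblast level (6683), the lowest summed pan-leukocyte level (1129) and the highest summed biliary epithelial level (353606). In bulk samples fewer cells of a type and less RNA per cell cannot be told apart.

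After BDL, 7 of 10 epithelial subunits rose, Itga2, Itga3 and Lama3 among them, and none fell. Of 12 stromal subunits 6 fell (Itga11, Lamc3, Lama2, Itga8, Lamb2 and Itga1) and 1 rose (Itga5). Of 8 leukocyte subunits tested 2 rose (Itgam and Itgb2), and of 6 shared subunits 2 rose (Itgb1 and Itgav) and 1 fell (Itgb5). Of the 36 subunits tested, 12 were higher, 7 were lower and 17 did not pass edgeR's quasi-likelihood test at an adjusted p under 0.05. Over all genes tested the same rule called 21.4% higher and 19.9% lower, 41.4% in either direction, against 33.3% higher and 19.4% lower among the subunits. The median log2 fold change was -0.06 over the 36 subunits and -0.03 over all genes. By class it was 1.11 for epithelial, -1.08 for stromal, 0.04 for leukocyte and 0.16 for shared subunits. The BDL libraries were all above the sham libraries in 10 subunits and all below them in 7, beside 19.2% and 19.0% of all genes (38.2% in either direction). Among those 7 was Itga10, which had 24 counts in all libraries together and did not pass. Itgb5, called lower, overlapped and was not among them.

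**Figure D1:**
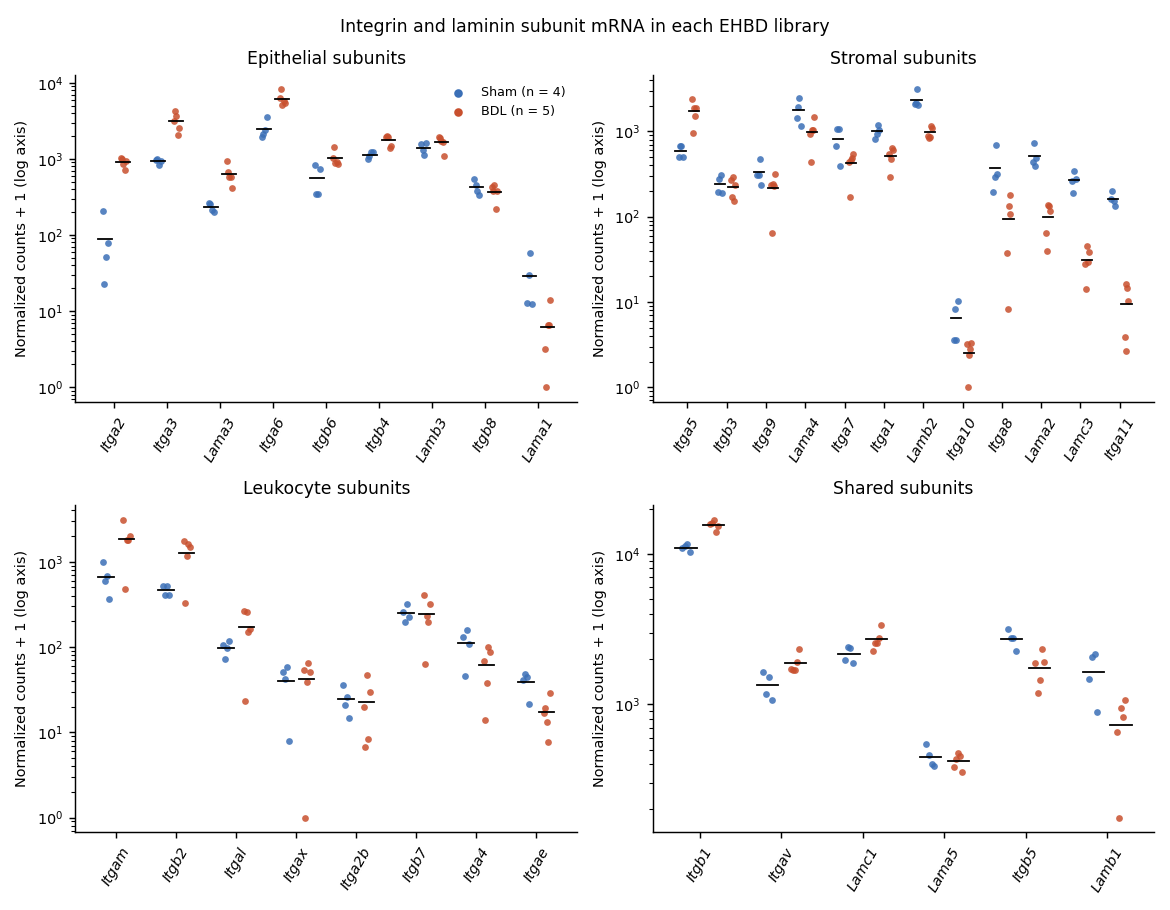
Normalized counts plus 1 (log axis) of 35 of the 36 tested subunits in each library, in 4 panels by class, with sham libraries (n = 4) in blue, BDL libraries (n = 5) in red and a black line at the mean of the plotted values. The epithelial genes plotted from Itga2 to Itgb4 show no overlap between groups, and the lone low BDL points of Itgam, Itgb2, Itgal and Lamb1 all belong to BDL replicate 4.

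**Figure D2:**
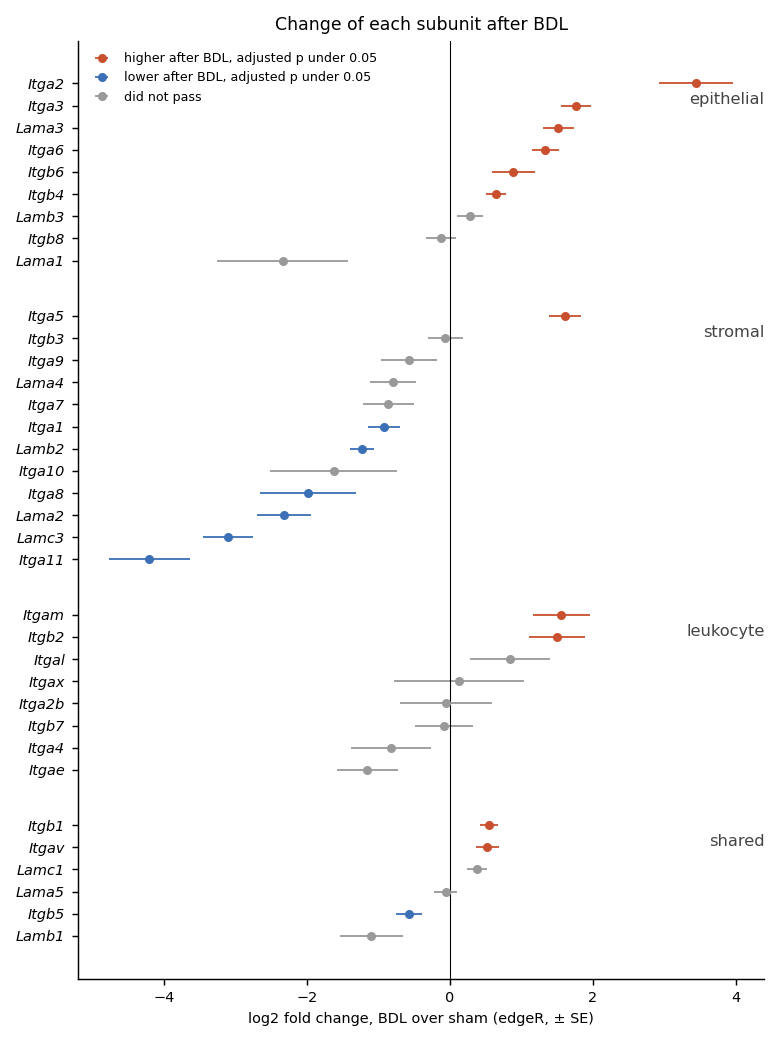
The log2 fold change of BDL over sham from edgeR with its standard error for 35 of the 36 tested subunits, grouped by class, with genes past an adjusted p of 0.05 in red (higher) or blue (lower) and the others in grey. Epithelial values run from 3.44 for Itga2 to -2.34 for Lama1, and stromal values from 1.61 for Itga5 to -4.20 for Itga11.

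Itga2 and Itga1 encode the alpha chains of the beta 1 collagen receptors of epithelium and of stroma, and they lie side by side on chromosome 13 of GRCm39, on the same strand and 21.0 kb apart (Itga2 at chr13:114969617-115068636 and Itga1 at chr13:115089632-115238677). The normalized counts of Itga2 in sham replicates 1, 2, 5 and 7 were 205, 21.8, 49.8 and 78.4, and in BDL replicates 3, 4, 6, 8 and 10 they were 1031, 999, 846, 709 and 940. Every BDL library was thus far above every sham library, while sham replicate 1 was well above the other sham libraries. The means were 88.8 ± 81.1 (SD, n = 4) and 905 ± 130 (SD, n = 5), and the log2 fold change of 3.44 (SE 0.52, adjusted p = 0.000704) was the highest among the 36 subunits. Itga1 moved the other way, with normalized counts of 823, 930, 1197 and 1035 in sham and of 542, 287, 479, 642 and 600 in BDL in the same order of replicates. The groups did not overlap, and the log2 fold change of Itga1 was -0.92 (SE 0.22, adjusted p = 0.00909), a call lost against sham replicates 1 and 5 alone (adjusted p = 0.0606). Within a library, the log2 ratio of Itga2 to Itga1 rose from -3.90 ± 1.44 (SD, n = 4) to 0.87 ± 0.60 (SD, n = 5) after BDL, a difference of 4.77 with a two-sided exact permutation p = 0.00794, the smallest that 4 against 5 libraries allow, and 0.0222 after adjustment over 14 ratios. Each gene alone already separated the groups, in opposite directions, so this ratio had to separate them too and is no further support. Leaving out sham replicate 1 moved the log2 fold change of Itga2 to 4.30 (adjusted p = 0.000168). Exons of Mocs2, on the other strand, overlap 19.6% of the Itga1 transcript and 6.25% of that of Itga2, and the counting is not stated to use strand. Mocs2 itself had a log2 fold change of -0.04 (SE 0.10, adjusted p = 0.773).

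The other collagen receptor chains were stromal and low. Itga11, the fibroblast partner of Itgb1 on fibrillar collagen (chr9:62585108-62691617), had normalized counts of 162, 198, 153 and 131 in sham and of 2.92, 1.64, 15.1, 13.5 and 9.30 in BDL. No BDL library reached a sham library, and Itga11 fell by 4.20 on the log2 scale (SE 0.57, adjusted p = 0.000387), the lowest value among the 36 subunits. Itga10, the cartilage collagen receptor chain, had 24 counts in all libraries and did not pass (log2 fold change -1.63, SE 0.89, adjusted p = 0.174). Exons of Gm42957, on the same strand, overlap 34.5% of the Itga10 transcript. Promoters are shown for the collagen receptor genes that moved in opposite directions, Itga2, Itga1 and Itga11, and for Itgam, the leukocyte alpha chain that rose. They are the 250 bases before the RefSeq gene start on GRCm38.p6, a build other than that of the counts, in the direction of the gene: chr13:114932101-114932350 (minus strand), chr13:115101965-115102214 (minus strand), chr9:62677605-62677854 (plus strand) and chr7:128062390-128062639 (plus strand). Capitals mark matches, on either strand, to GAGGAAG (a core of the PU.1 site) or GGGCGG (a GC box). TGANTCA (an AP-1 site) was searched too and had no match in these 4.
Itga2: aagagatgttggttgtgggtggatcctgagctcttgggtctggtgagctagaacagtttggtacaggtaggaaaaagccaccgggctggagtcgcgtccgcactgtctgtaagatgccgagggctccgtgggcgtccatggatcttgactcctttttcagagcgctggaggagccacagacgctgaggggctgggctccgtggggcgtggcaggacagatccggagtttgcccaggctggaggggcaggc
Itga1: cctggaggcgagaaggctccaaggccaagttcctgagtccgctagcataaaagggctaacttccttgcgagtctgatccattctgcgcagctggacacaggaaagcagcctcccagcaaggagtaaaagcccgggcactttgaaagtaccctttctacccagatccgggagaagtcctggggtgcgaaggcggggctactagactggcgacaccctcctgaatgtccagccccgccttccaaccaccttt
Itga11: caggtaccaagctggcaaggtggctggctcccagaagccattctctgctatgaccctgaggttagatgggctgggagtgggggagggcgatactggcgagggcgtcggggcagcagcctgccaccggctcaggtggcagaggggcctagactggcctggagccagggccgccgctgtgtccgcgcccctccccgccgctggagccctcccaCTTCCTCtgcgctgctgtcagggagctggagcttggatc
Itgam: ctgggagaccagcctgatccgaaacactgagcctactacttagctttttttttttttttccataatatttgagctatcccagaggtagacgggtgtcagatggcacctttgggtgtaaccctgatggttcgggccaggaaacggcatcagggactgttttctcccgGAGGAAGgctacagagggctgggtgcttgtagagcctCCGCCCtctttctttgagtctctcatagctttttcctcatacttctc

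RefSeq promoters were at hand for 23 of the 37 subunits, 26 windows in all. GAGGAAG was in 7 of the 26 and in 10.6% of all 32851 promoter windows of that length, GGGCGG in 9 of the 26 and in 32.7% of all, and TGANTCA in 1 of the 26 (that of Itgax) and in 6.75% of all. Among the printed windows, that of Itga11, which fell, and that of Itgam, which rose, each held 1 match to GAGGAAG, and those of Itga2 and Itga1 held no match to any of the 3 motifs. A match describes the letters of the window and is not evidence of binding.

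Of the epithelial laminin chains Lama3 rose and Lamb3 did not pass the test. Lama3, an alpha chain, was at 261, 256, 211 and 201 in sham and at 924, 669, 577, 583 and 416 in BDL, without overlap, and rose with a log2 fold change of 1.52 (SE 0.22, adjusted p = 0.000528). Lamb3, a beta chain, was at 1551, 1293, 1109 and 1625 in sham and at 1946, 1852, 1710, 1676 and 1103 in BDL. BDL replicate 10 lay below every sham library for Lamb3, and the log2 fold change of 0.28 (SE 0.18) did not pass (adjusted p = 0.25). Lama1, an alpha chain of embryonic epithelial basement membrane, had 116 counts in all libraries and did not pass with edgeR (log2 fold change -2.34, SE 0.92, adjusted p = 0.0672), although DESeq2 called it lower (adjusted p = 0.0218), as did edgeR without BDL replicate 10 (-3.13, adjusted p = 0.0334) and with 3 other filters on low counts.

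The epithelial laminin receptor chains Itga3, Itga6 and Itgb4 all rose. Itga3, which binds the epithelial laminin together with Itgb1, was at 958, 998, 840 and 947 in sham and at 3103, 4252, 3630, 2055 and 2514 in BDL, a log2 fold change of 1.77 (SE 0.21, adjusted p = 0.000188). Itga6 was at 1956, 2138, 2375 and 3520 in sham and at 6258, 8168, 5165, 5766 and 5405 in BDL, a log2 fold change of 1.34 (SE 0.18, adjusted p = 0.000434). Neither gene had a BDL library within the sham range, and BDL replicate 4 was the highest library for each. Itgb4, the hemidesmosome chain that pairs only with Itga6, was at 996, 1088, 1244 and 1231 in sham and at 1962, 1973, 1923, 1368 and 1488 in BDL. It rose with a log2 fold change of 0.65 (SE 0.14, adjusted p = 0.00435). The log2 ratio of Itgb4 to Itga6 went from -1.10 ± 0.28 (SD, n = 4) to -1.82 ± 0.27 (SD, n = 5), a difference of -0.72 with an exact permutation p = 0.0238 (0.0417 after adjustment over 14 ratios). The groups overlapped in this ratio. Exons of Galk1, on the other strand, overlap 17.2% of the Itgb4 transcript, and Galk1 had a log2 fold change of 0.64 (SE 0.15, adjusted p = 0.00711).

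Itgb6 and Itgb8, epithelial partners of Itgav that activate latent TGF-beta, had separate outcomes in the test, 1 passing and 1 not. Itgb6 was at 823, 346, 347 and 742 in sham and at 1040, 1413, 884, 919 and 866 in BDL, so that the groups did not overlap but BDL replicate 10 exceeded sham replicate 1 by little. Its log2 fold change was 0.89 (SE 0.31, adjusted p = 0.0415). The call of Itgb6 was lost without sham replicate 2 (adjusted p = 0.0905) or 5 (0.122), without BDL replicate 3 (0.0888), 4 (0.0690), 8 (0.0510) or 10 (0.0590), against sham replicates 1 and 5 alone (0.103), and with upper-quartile scaling (0.0763). Itgb8 ranged from 332 to 539 in sham and from 218 to 450 in BDL, with a log2 fold change of -0.12 (SE 0.21, adjusted p = 0.680).

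All 7 epithelial subunits that rose did so beside epithelial markers: 5 of 10 biliary epithelial markers (Krt7, Krt8, Krt18, Krt19 and Cldn4) rose, 1 (Sox9) fell, and their summed level did not overlap between groups. Taken relative to the mean log2 level of the 10 markers in the same library, a scale chosen after the data were seen, Itga2 (2.97), Itga3 (0.89) and Lama3 (0.61) kept every BDL library above every sham library, with the log2 difference in parentheses. Itga6 (0.52), Itgb6 (0.15) and Itgb4 (-0.19) overlapped between groups on that scale. The epithelial subunits that had not passed, Lamb3 (-0.56), Itgb8 (-1.02) and Lama1 (-3.15), had every BDL library below every sham library on it. With the acinar level as a term in the fit, edgeR still called Itga6 (1.55, adjusted p = 0.0352) and Lama3 (1.67, adjusted p = 0.0392), and Itga2 (2.74, 0.0669), Itga3 (1.10, 0.0714), Itgb4 (0.53, 0.295) and Itgb6 (0.60, 0.577) did not pass, with the log2 fold change and adjusted p in parentheses.

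Stromal laminin chains fell. Lamc3, a gamma chain of mesenchymal and neural basement membranes, was at 259, 190, 345 and 274 in sham and at 27.0, 13.1, 44.5, 28.2 and 37.2 in BDL. Lama2, the laminin alpha chain of muscle and nerve, was at 434, 724, 392 and 484 in sham and at 64.2, 38.5, 134, 131 and 117 in BDL. Lamb2, the beta chain of vessel and muscle laminins, was at 2104, 2178, 3102 and 2036 in sham and at 893, 831, 865, 1169 and 1108 in BDL. For these 3 genes the groups did not overlap, and sham replicate 5 was the highest library for Lamc3 and Lamb2. Lamc3 fell by 3.11 (SE 0.35, adjusted p = 0.000141), Lama2 by 2.32 (SE 0.38, adjusted p = 0.00108) and Lamb2 by 1.23 (SE 0.17, adjusted p = 0.000371) on the log2 scale. Lama4, the alpha chain of endothelial and mesenchymal laminin, did not pass (log2 fold change -0.79, SE 0.32, adjusted p = 0.0721), with levels of 1164 to 2493 in sham and 432 to 1457 in BDL, except without BDL replicate 10 (-0.98, adjusted p = 0.0482) and under 3 other settings.

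Of the stromal integrin chains, Itga8, the nephronectin receptor chain of smooth muscle and fibroblasts, was at 192, 292, 700 and 314 in sham and at 36.5, 7.37, 132, 180 and 105 in BDL. The highest BDL library, replicate 8, lay just under the lowest sham library, replicate 1. Itga8 fell by 1.98 on the log2 scale (SE 0.68, adjusted p = 0.0397), a call lost without sham replicate 1 (0.0596), 2 (0.0847), 5 (0.141) or 7 (0.0537) or BDL replicate 3 (0.0897) or 6 (0.0626) and against sham replicates 1 and 5 alone (0.119). Itga7, the laminin receptor chain of muscle, was at 676, 1077, 1075 and 392 in sham and at 441, 170, 465, 489 and 536 in BDL. Sham replicate 7 lay among the BDL libraries, and Itga7 did not pass (log2 fold change -0.86, SE 0.36, adjusted p = 0.0785) except without sham replicate 7 (-1.09, adjusted p = 0.0356) and under 3 other settings. Itga9, a tenascin and osteopontin receptor chain, was between 233 and 469 in sham and between 63.1 and 312 in BDL (log2 fold change -0.57, SE 0.39, adjusted p = 0.270). Itgb3, the beta chain of the vitronectin receptor, was between 187 and 308 in sham and between 153 and 295 in BDL (log2 fold change -0.06, SE 0.25, adjusted p = 0.870).

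Itga5, the alpha chain of the fibronectin receptor, was the only stromal subunit of the 12 tested that rose. It was at 495, 676, 674 and 493 in sham and at 2416, 960, 1869, 1520 and 1888 in BDL. BDL replicate 4 was well under the other BDL libraries but still above every sham library, and the log2 fold change was 1.61 (SE 0.23, adjusted p = 0.000487). Itgb1, its only partner, rose less, and the log2 ratio of Itga5 to Itgb1 differed by 1.02 between groups, from -4.25 ± 0.20 (SD, n = 4) to -3.24 ± 0.50 (SD, n = 5), with an exact permutation p = 0.0238 (0.0417 adjusted). In this ratio the groups overlapped.

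The 6 stromal subunits that fell did so beside fibroblast, endothelial and Schwann cell markers. Of 8 fibroblast markers 4 fell (Dcn, Lum, Dpt and Pi16), none rose and 4 did not pass (Col1a1, Col1a2, Col5a1 and Pdgfra). Over that list the log2 fold changes ran from -3.34 to 0.75, so the fibroblast markers did not all fall. Of 8 endothelial markers 4 fell, and of 6 Schwann cell markers 3 fell. The summed level of each of these 3 lists was lower in every BDL library than in every sham library. Of 6 smooth muscle markers 2 fell (Myh11 and Tagln), and their summed level overlapped between groups (8117 to 22343 in sham and 2267 to 13045 in BDL). No fibroblast or endothelial marker was at 0 in any library. Markers of other cell types fell as well, 4 of 5 for adipocytes, 2 of 4 for mast cells, 6 of 6 for pancreatic islets and 17 of 17 for the pancreatic acinus. The part of each cell type in the fall of the stromal subunits was not tested. Relative to the mean log2 level of the fibroblast markers in the same library, Itga11 (-2.92) and Lamc3 (-1.70) still had every BDL library below every sham library, and Itga5 (3.0) still had every BDL library above, with the log2 difference in parentheses. Lama2 (-0.998), Itga8 (-0.98), Lamb2 (0.22) and Itga1 (0.48) overlapped between groups on that scale. As CPM, that is scaled to the total of all counts with acinar genes included, Itga11, Lamc3 and Lama2 still had every BDL library below every sham library, whereas Itga8 (10.4 in sham and 5.09 in BDL), Lamb2 (67.1 and 52.9) and Itga1 (27.5 and 27.7) overlapped, with mean CPM in parentheses. With the acinar level as a term, edgeR called Lamc3 (-3.28, adjusted p = 0.0327) and Itga5 (1.95, adjusted p = 0.0270), and Itga11 (-4.45, 0.0565), Lamb2 (-0.94, 0.127), Lama2 (-2.20, 0.136), Itga8 (-1.36, 0.612) and Itga1 (-0.26, 0.742) did not pass.

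The 2 leukocyte subunits that rose, Itgam and Itgb2, form the Mac-1 receptor. Itgam, the alpha chain of Mac-1 on neutrophils and macrophages (chr7:127661808-127717753), was at 1004, 586, 679 and 364 in sham and at 3108, 476, 1804, 1800 and 2028 in BDL. Itgb2, the beta chain of all leukocyte-specific alpha L, M, X and D integrins, was at 523, 403, 519 and 401 in sham and at 1765, 324, 1169, 1595 and 1480 in BDL. BDL replicates 3, 6, 8 and 10 were above every sham library for each gene, and BDL replicate 4 was inside the sham range for Itgam and below it for Itgb2. The log2 fold change was 1.56 for Itgam (SE 0.40, adjusted p = 0.0114) and 1.5 for Itgb2 (SE 0.39, adjusted p = 0.0129), and their log2 ratio differed by 0.09 between groups (exact permutation p = 0.706). Neither passed against sham replicates 1 and 5 alone (adjusted p = 0.127 and 0.123) or with the acinar level as a term (0.130 and 0.0642). Gm49368, a gene model on the same strand, shares 92.1% of the Itgam transcript and took at most 3.01% of their joint level in any library.

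Itgal, the alpha chain of LFA-1 on lymphocytes and other leukocytes, was at 105, 70.7, 95.7 and 118 in sham and at 261, 22.1, 255, 150 and 163 in BDL. The BDL libraries other than replicate 4 were above every sham library, and the log2 fold change of 0.84 (SE 0.56, adjusted p = 0.258) passed only without BDL replicate 4 among the settings tried (1.13, adjusted p = 0.00845). Itgax, the dendritic cell and macrophage chain that follows Itgam on chromosome 7 after 10.9 kb, was at 50.5, 41.7, 57.7 and 6.92 in sham and at 52.5, 0, 37.7, 63.8 and 49.6 in BDL (log2 fold change 0.13, SE 0.91, adjusted p = 0.927). Its groups overlapped, and its sign changed between settings. Itgb7, the gut-homing chain of lymphocytes and mast cells, was at 257, 198, 322 and 226 in sham and at 403, 63.1, 227, 197 and 317 in BDL (log2 fold change -0.08, SE 0.40, adjusted p = 0.895). The log2 ratio of Itgb7 to Itgb2 was nevertheless lower in every BDL library, at -0.89 ± 0.16 (SD, n = 4) for sham and -2.41 ± 0.35 (SD, n = 5) for BDL, with an exact permutation p = 0.00794 (0.0222 adjusted). Itgae, the alpha chain of intraepithelial T cells, was between 20.7 and 47.2 in sham and between 6.75 and 27.9 in BDL (log2 fold change -1.16, SE 0.43, adjusted p = 0.0541). It passed without BDL replicate 4 (-1.31, adjusted p = 0.0457) and under 5 other settings, DESeq2 among them (0.0163). Itga4, a lymphocyte and monocyte chain (-0.82, adjusted p = 0.273), and Itga2b, the platelet chain (-0.05, adjusted p = 0.956), did not pass either.

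**Figure D3:**
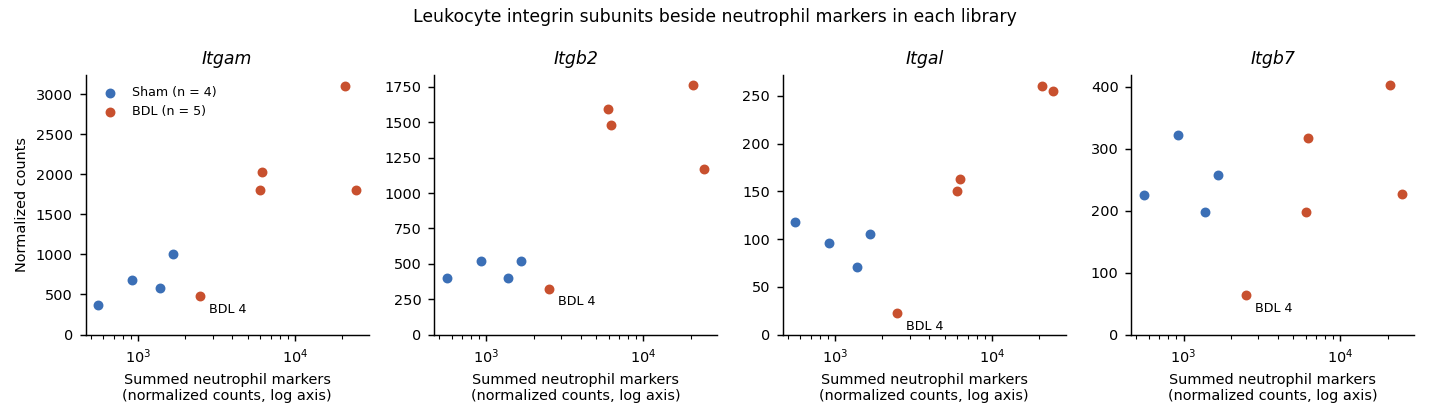
Normalized counts of Itgam, Itgb2, Itgal and Itgb7 against the summed normalized counts of 8 neutrophil markers (log axis) in each library, with sham (n = 4) in blue and BDL (n = 5) in red. BDL replicate 4 has the lowest neutrophil sum of the BDL libraries (2492) and the lowest level of each of the 4 subunits among them.

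Neutrophil markers rose beside Itgam and Itgb2 but not in step with them in every library. BDL replicate 6 had a higher neutrophil sum than BDL replicate 8 (24497 and 5991) but less Itgb2 (1169 and 1595). Of 8 neutrophil markers 7 rose, and their summed level went from 560 to 1670 in sham to 2492 to 24497 in BDL, with Cxcr2 and Ly6g at 0 in some sham libraries. Of 8 monocyte and macrophage markers 1 rose (Cd68), and their summed level overlapped between groups (12428 to 22725 in sham and 3600 to 33620 in BDL). Of 6 T and NK cell markers 4 fell (Cd3e, Cd3d, Cd4 and Nkg7), and their summed level went from 187 to 299 in sham to 23.8 to 44.8 in BDL. Relative to the mean log2 level of 4 pan-leukocyte markers, Itgb2 (0.62) lay above in every BDL library, Itgb7 (-0.90) and Itga4 (-1.64) lay below in every BDL library, and Itgam (0.72) overlapped, with the log2 difference in parentheses. The part of these cells in the change of each subunit was not tested.

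Itgb1, the beta chain that most alpha chains here share, was at 10908, 11205, 11703 and 10284 in sham and at 15829, 16082, 16881, 13991 and 15394 in BDL. The groups did not overlap, and Itgb1 rose with a log2 fold change of 0.55 (SE 0.12, adjusted p = 0.00554). Itgav, the alpha chain of the RGD-binding receptors with Itgb3, Itgb5, Itgb6 and Itgb8, was at 1637, 1177, 1511 and 1074 in sham and at 1705, 1694, 1693, 1920 and 2328 in BDL. Its lowest BDL library was only slightly above sham replicate 1, and its log2 fold change of 0.53 (SE 0.16, adjusted p = 0.0240) was lost without sham replicate 2 (0.0671) or 7 (0.0754), without BDL replicate 10 (0.0751) and with upper-quartile scaling (0.0810). Itgb5, a vitronectin receptor chain, was at 3177, 2737, 2753 and 2255 in sham and at 1890, 1193, 1443, 2336 and 1904 in BDL. BDL replicate 8 lay above sham replicate 7, and Itgb5 was lower by edgeR with a log2 fold change of -0.57 (SE 0.19, adjusted p = 0.0337). That call of Itgb5 was lost without sham replicate 1 (0.1), 2 (0.0516) or 5 (0.103) or BDL replicate 3 (0.0774), 6 (0.0680) or 10 (0.0705), and its mean was higher in BDL as CPM of all counts (79.7 in sham and 95.1 in BDL). The log2 ratio of Itgb5 to Itgav, which needs no scaling between libraries, was 1.03 ± 0.15 (SD, n = 4) for sham and -0.12 ± 0.33 (SD, n = 5) for BDL, without overlap (exact permutation p = 0.00794, 0.0222 adjusted). With the acinar level as a term, none of Itgb1, Itgav and Itgb5 passed edgeR's test (adjusted p = 0.324, 0.468 and 0.909), and none passed against sham replicates 1 and 5 alone (0.0502, 0.182 and 0.0769).

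Of the shared laminin chains none passed with edgeR. Lamc1, the gamma chain of most laminins, was between 1870 and 2398 in sham and between 2272 and 3366 in BDL (log2 fold change 0.38, SE 0.14, adjusted p = 0.0516). It passed without sham replicate 5 (adjusted p = 0.0475) or BDL replicate 3 (0.0249), with no sex term (0.0415) and with scaling to genes under 0.5% of the counts (0.0447). Lamb1, the beta chain of most laminins, was at 1467, 2077, 2159 and 885 in sham and at 649, 175, 947, 819 and 1064 in BDL. Sham replicate 7 was within the BDL range and BDL replicate 4 far under it, and the log2 fold change of -1.10 (SE 0.44) did not pass (adjusted p = 0.0713) except without BDL replicate 4 (-0.87, adjusted p = 0.0314), with no filter on low counts (0.0180), with upper-quartile scaling (0.0483) and with DESeq2 (0.0241). Lama5, the alpha chain of mature epithelial basement membrane, was between 390 and 542 in sham and between 353 and 473 in BDL (log2 fold change -0.06, SE 0.16, adjusted p = 0.803).

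Levels of different genes were compared per kilobase of the main transcript. Lama3 took 4.89% ± 1.19 (SD, n = 4) of the summed per-kilobase level of the 5 alpha chains for sham and 21.2% ± 8.90 (SD, n = 5) for BDL. Lama2 took 13.5% ± 4.16 and 3.71% ± 1.29, and Lama4 led in each group with 70.8% ± 6.81 and 60.2% ± 11.9. The shares of Lama3 and Lama2 did not overlap between groups, whereas that of Lama4 did. Among the beta chains, Lamb2 took 43.7% ± 4.21 and 29.0% ± 4.02 without overlap, and Lamb3 27.1% ± 8.06 and 50.2% ± 11.5 with overlap.

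**Figure D4:**
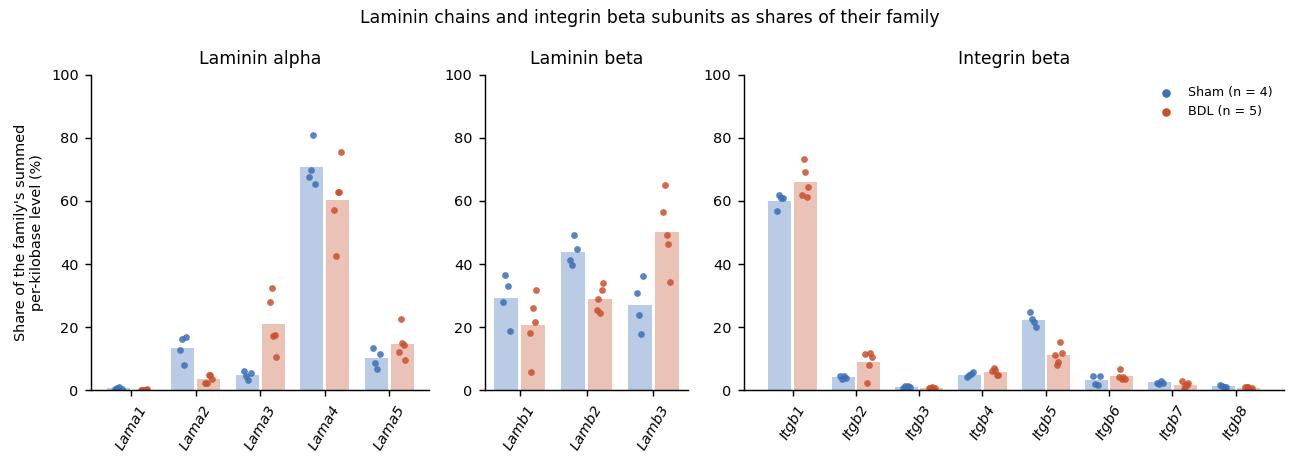
Share of each gene, in percent, in the summed per-kilobase level of its family (laminin alpha and beta chains and integrin beta chains) in each library, with sham (n = 4) in blue, BDL (n = 5) in red and bars at the group mean. Lama3 takes a larger share in every BDL library than in any sham library, and Itgb5 takes a smaller one.

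Among integrin beta chains, Itgb1 had the highest per-kilobase level of the 8 in each group, 2200 ± 118 in sham and 3120 ± 213 in BDL, and a share of 60.1% ± 2.25 and 66.0% ± 5.09 with overlap. Itgb5 came next with 22.3% ± 2.03 in sham and 11.1% ± 2.85 in BDL, without overlap. Itgb2 took 4.23% ± 0.42 and 8.89% ± 3.87, with overlap. Among alpha chains Itga6 had the highest per-kilobase level, 566 ± 159 in sham and 1394 ± 272 in BDL, while Itga2 rose from 12.5 ± 11.4 to 127 ± 18.3 and stayed well under Itga6 and Itga3 (188 ± 13.5 and 627 ± 176).

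Ratios between subunits within a library do not depend on the scaling between libraries, apart from a pseudocount of 1. Of 14 ratios compared, 8 differed between groups at an exact permutation p under 0.05 adjusted over the 14. The log2 ratio of Lama3 to Lama5 rose by 1.5 (from -0.94 ± 0.09 to 0.56 ± 0.43) and that of Lama2 to Lama5 went from 0.16 ± 0.42 to -2.23 ± 0.78, each without overlap (adjusted p = 0.0222, exact permutation). Of those that did not pass, Lamb3 to Lamb1 differed by 1.55 (adjusted p = 0.0808), Itgam to Itgal by 0.91 (0.0741), Itgax to Itgam by -1.80 (0.0778), Itgb6 to Itgav by 0.47 (0.299) and Itgb3 to Itgav by -0.60 (0.102), all from exact permutation tests. All SDs here are over 4 sham and 5 BDL libraries. With 1 BDL library left out, the smallest two-sided exact p is 0.0286, so the adjusted values then say nothing of stability.

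**Figure D5:**
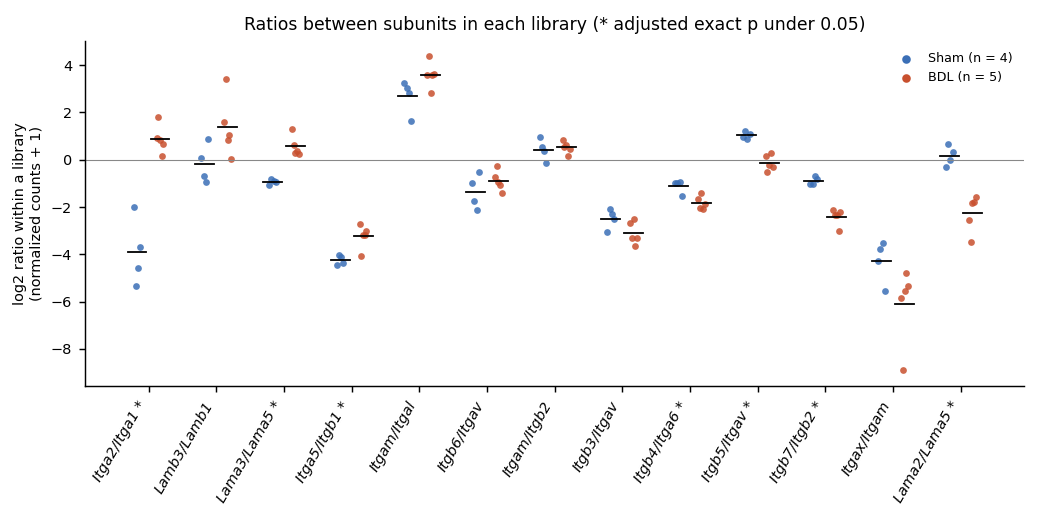
The log2 ratio of normalized counts (plus 1) for 13 of the 14 pairs of subunits in each library, with sham (n = 4) in blue, BDL (n = 5) in red, a black line at the mean, and an asterisk at ratios with an adjusted exact permutation p under 0.05. Itga2 to Itga1 shows the widest separation, 4.77 log2 units between the group means.

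Genes that act with these receptors were taken as 5 lists, whose counts stand beside 21.4% higher and 19.9% lower over all genes tested. Of 29 adaptors between integrins and actin, 10 rose and 4 fell, with a median log2 fold change of 0.21. Actn1, an actin crosslinker (1.47, adjusted p = 4.01e-05), and Ptk2, focal adhesion kinase (0.88, adjusted p = 0.000264), rose, and the tensins Tns1 (-1.33, adjusted p = 0.000282) and Tns2 (-1.44, adjusted p = 0.000365) and the PINCH gene Lims2 (-2.22, adjusted p = 0.000441) fell. Of 10 genes of integrin activation, 2 rose, Rap1b (0.52, adjusted p = 0.00366) and Cib1 (0.79, adjusted p = 0.00370), and none fell. Of 6 hemidesmosome and other laminin receptor genes, the linker gene Plec rose by edgeR (0.32, adjusted p = 0.0284) and Dst fell (-1.15, adjusted p = 0.000704). The call of Plec was lost without sham replicate 1 (0.0520), 2 (0.0760) or 7 (0.0774) or BDL replicate 3 (0.0607) or 10 (0.0802) with RLE (0.0520) or upper-quartile (0.176) scaling, with no filter on low counts (0.0616) and against sham replicates 1 and 5 alone (0.148). With the acinar level as a term, edgeR no longer called Ptk2 (adjusted p = 0.0988), Tns2 (0.0897), Lims2 (0.0885), Rap1b (0.0632), Cib1 (0.115), Plec (0.587) or Dst (0.113). Paired values in parentheses are log2 fold changes and edgeR's adjusted p.

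Of 21 partners of laminin in the basement membrane, 4 rose and 9 fell, with a median log2 fold change of -0.97. Npnt, nephronectin (1.30, adjusted p = 0.000204), Col18a1 (1.24, adjusted p = 0.000729) and Tinagl1 (1.17, adjusted p = 0.00427) rose, and Ntn4, a netrin that binds laminin (-2.35, adjusted p = 5.73e-05), and the collagen IV chains Col4a3 (-2.12, adjusted p = 0.000332) and Col4a5 (-1.64, adjusted p = 0.000396) fell. Of 25 integrin ligands, 7 rose and 5 fell, with a median of 0.55. Tnc, tenascin C and a ligand of Itga9, rose with a log2 fold change of 2.96 (SE 0.38, adjusted p = 0.000310), from 56.3 ± 10.1 (SD, n = 4) to 424 ± 183 (SD, n = 5) normalized counts. Ccn2 (1.41, adjusted p = 0.00385) and Ccn1 (0.93, adjusted p = 0.00639), matricellular ligands, rose as well. Vtn, vitronectin (-3.78, adjusted p = 0.00229), Tgfb3 (-1.57, adjusted p = 0.000446) and Mfge8 (-0.82, adjusted p = 0.00163) fell. Leaving out BDL replicate 6 moved Vtn to -4.64, and sham replicates 1 and 5 alone put it at -3.04. With the acinar level as a term, edgeR no longer called Tinagl1 (0.26, adjusted p = 0.701), Col18a1 (0.91, 0.162), Col4a3 (-2.08, 0.0726) or Col4a5 (-1.49, 0.0948) among the basement membrane genes. Among the ligands the calls of Ccn2 (0.45, adjusted p = 0.611), Ccn1 (0.55, 0.469), Vtn (-5.05, 0.0868) and Mfge8 (-0.92, 0.0903) were lost with that term, and Tgfb3 moved to -2.25 (0.00822).

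Sexes were pooled in these values with sex as a term. A difference in surgery effect between sexes passed for no subunit of the 36 by edgeR or by DESeq2, and 1 of them (Lama5) had an unadjusted edgeR p under 0.05. Over all genes 0 passed and 2.55% were at an unadjusted edgeR p under 0.05. Each sex had 2 or 3 mice per group, so large differences could be missed. That of Itgb7 was 1.41 on the log2 scale (males minus females, SE 0.71).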

How the data were processed

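The authors prepared SMART-Seq mRNA libraries from 4 ng RNA, read them from each end over 151 bp, quantified the trimmed reads with Salmon (GENCODE transcripts, GRCm39) and used tximeta to collapse transcripts into genes. What they deposited are estimated counts per gene in whole numbers, without normalization or filter. Surgery and replicate numbers come from the labels and sex from the deposited sample sheet. Gene models came from a later GENCODE release on the same build, which holds 55261 of the 55822 gene IDs.

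The integrin and laminin subunits, their classes and all gene lists were chosen with earlier results of these data known. Genes with at least 10 counts over all libraries were fitted with edgeR 4.0.16 (quasi-likelihood F test, TMM scaling, surgery with sex as a covariate, R 4.3.3) and adjusted by Benjamini-Hochberg over 21299 genes at a threshold of 0.05. Standard errors are the log2 fold change over the root of F. Levels are counts over size factors of DESeq2 1.42.0. Within-library ratios used log2(normalized count + 1) and two-sided exact permutation tests over every labeling of the 9 libraries. Per-kilobase levels divide by the exon length of the Ensembl canonical transcript, and gene-level values do not separate isoforms. No 2 libraries of a group agreed within counting noise. The label numbers are taken as separate mice, and these mice are the replicates of every test. The edgeR p-values rest on dispersions that share information across genes. The permutation p-values come from relabeling libraries without regard to sex. The text names the subunits and, in each pathway list, up to 3 genes of smallest p in each direction, and 1 subunit and 1 adaptor gene that this rule takes, although counted, are not reported here. The test was tried on simulated counts.

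The alternatives tried were DESeq2, scaling by RLE or upper quartile, scaling to genes under 0.5% of the counts, no filter, 2 stricter filters, no sex term, the acinar level as a term, sham replicates 1 and 5 alone (those of least acinar content), a threshold of 0.01, a test against a fold of 1.5, pseudocounts of 0.1 and 5, CPM, and each library left out. Values relative to cell type markers were added after the data were seen.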

Additional observations from a re-analysis of the deposited data

Results flagged for a closer look

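Among 72 groups of 4 or 5 libraries examined (36 subunits in sham and in BDL), 2 had a library whose distance from the nearest other exceeded Dixon's 95% limit as a share of the range, fewer than the 1 in 20 that chance gives. Lamb2 was at 3102 normalized counts in sham replicate 5, with the nearest other sham library at 2178 (share of the range 0.866). Without that library Lamb2 was still called lower. Itga7 was at 170 in BDL replicate 4, with the nearest other BDL library at 441 (share 0.741). BDL replicate 4 also had the lowest summed fibroblast level (6683) of all libraries. The part of either library's tissue content in these values was not tested.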

How the results depend on the processing

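Every call of a subunit kept its direction in the refits tried. As CPM, however, the means of the lower calls Itgb5 (79.7 in sham and 95.1 in BDL) and Itga1 (27.5 and 27.7) were higher in BDL, and relative to cell type markers Lamb2 (0.22) and Itga1 (0.48) were positive and Itgb4 (-0.19) negative. Upper-quartile scaling moved the median of all genes by -0.15 (log2), and the share of higher among all calls went from 51.8% to 42.0% with it and to 74.8% with the acinar level as a term. Subunits called lower, 7 in the reported fit, were 12 with DESeq2 (epithelial 1, leukocyte 1, shared 2), 11 with upper-quartile scaling (leukocyte 1, shared 2, with shared higher 1) and 11 with no filter (epithelial 1, shared 2). Of all 21299 genes tested, 4245 were lower in the reported fit, 5085 with DESeq2 and 5127 with upper-quartile scaling. With no filter 4155 of 28094 genes were lower. RLE scaling gave leukocyte 1 lower, and 10 counts in 4 libraries or filterByExpr gave epithelial 1 and leukocyte 1 lower. With the acinar level as a term, 3 subunits were higher and 1 lower (epithelial 2 higher, stromal 1 lower, leukocyte 0 higher, shared 0 higher and 0 lower), beside 1080 and 363 of all genes, and the uncalled values of Itga10 (0.0058), Itga4 (0.46) and Itgb7 (0.60) turned positive. Against sham replicates 1 and 5 alone, 7 were higher and 4 lower (leukocyte 0 higher, shared 0 and 0), beside 3555 and 2830 of 20872 genes tested. Itgax was then at -0.36 (-0.016 with upper-quartile scaling) and the Itgam to Itgb2 ratio at -0.14. With these shams 0 ratios passed, with 0.0476 the smallest exact permutation p possible. A threshold of 0.01 left 2519 of all genes lower, leukocyte 0 and shared 1 higher, and shared 0 lower. A test against a fold of 1.5 left 2298 of all genes higher and 2362 lower, 4 subunits lower, and shared 0 higher and 0 lower. As CPM, 3 subunits were lower in every BDL library, not 7. The causes of these changes were not tested.

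With 1 library left out, epithelial and leukocyte subunits lower ranged from 0 to 1, shared subunits higher from 1 to 3 and lower from 0 to 2, and ratios that differed from 0 to 8, where 4 against 4 libraries allow no p under 0.0286. Uncalled log2 fold changes whose sign changed ranged from -0.81 to 0.17 for Itga2b, -0.15 to 0.074 for Lama5, -0.22 to 0.15 for Itgb3, -0.31 to 0.20 for Itgb7 and -0.28 to 0.83 for Itgax, and the Itgam to Itgb2 ratio from -0.10 to 0.26. No paired analysis was made. The methods state that littermates served as controls where possible, but no litter or pair was known for these samples. Depth limits Itga10 (24 counts), Lama1 (116), Itgae (224) and Itga2b (227).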
